A study of Homo sapiens with 3 samples.

Results

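Peaks at gene starts are the accessible regions that overlap the start interval of any gene, as the feature table gives it, widened by 1 kb on each side. They are 54802 of 215590 peaks (25.4%), and in 8913 cells they held 22119912 of 48410778 peak counts (45.7%, 95% exact Clopper-Pearson interval 45.67 to 45.71). Intervals throughout cover counting error only and take every 2 peak counts as 1 event, because both ends of a fragment are counted and 88.0% of entries were even.

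The 10x Genomics Multiome assay, which reads the RNA and the open chromatin of each single nucleus or cell together, was run on NCI-H226 and CL3. NCI-H226 is a human mesothelioma line without functional NF2, an inhibitor of YAP and TAZ upstream of the TEAD factors, and CL3 is a single clone of it selected for growth in GNE7883, a TEAD inhibitor, at 0.25 to 3 µM in steps of 0.1 to 0.5 µM. Each line was challenged with GNE7883 or with DMSO, the solvent control, then marked with hashtag antibodies and pooled. No map from cells to hashtags was used here, so all cells form 1 pooled sample. Lines and treatments cannot be told apart in any value below, and since neither cells nor peaks nor genes are replicates, p-values are left out.

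In accessible chromatin a transposase can cut and tag the DNA, so peak counts mark stretches free of tightly packed nucleosomes. Active promoters are the best known such stretches, and many of them are rich in CG dinucleotides and remain accessible whether or not the gene is being copied at that moment. Enhancers and other distal elements give peaks away from starts and tend to differ more between cell types.

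The interval of a gene in the feature table spans its annotated transcript starts, and the label fits only some of the members. An interval was 1 base wide for 54.9% of 36588 genes and at most 1 kb for 79.5%, but wider than 10 kb for 4297 genes (11.7%), and the widest was 2222661 bp. Members were therefore described in 2 classes, a division made after the data were seen. End peaks lie within 1 kb of the first or last base of an interval, and inside peaks lie only between the ends of a wide one. There were 23040 end peaks and 31762 inside peaks, so 58.0% of the members lay over 1 kb from either end.

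The promoters below, from RefSeq on GRCh38.p14, run from 250 bases before to 50 after a transcript start, 5′ to 3′, with CG dinucleotides in capitals. TSEN34, EEPD1 and CNOT3 have the member peaks with most counts. CD63 has the highest RNA level of any nuclear gene without a member peak. The ZNF579 start has the member with the most uneven counts over cells among those found in at least 5% of cells. ZNF528 has the highest ratio of member counts between cells with and without its RNA.
TSEN34, chr19:54190094-54190393, plus strand: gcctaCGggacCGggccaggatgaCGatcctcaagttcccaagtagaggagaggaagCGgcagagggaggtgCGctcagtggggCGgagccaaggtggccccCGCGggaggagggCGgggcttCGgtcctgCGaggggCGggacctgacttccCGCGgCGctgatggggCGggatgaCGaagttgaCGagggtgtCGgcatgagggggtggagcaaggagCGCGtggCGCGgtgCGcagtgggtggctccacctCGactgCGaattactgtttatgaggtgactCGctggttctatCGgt
EEPD1, chr7:36153004-36153303, plus strand: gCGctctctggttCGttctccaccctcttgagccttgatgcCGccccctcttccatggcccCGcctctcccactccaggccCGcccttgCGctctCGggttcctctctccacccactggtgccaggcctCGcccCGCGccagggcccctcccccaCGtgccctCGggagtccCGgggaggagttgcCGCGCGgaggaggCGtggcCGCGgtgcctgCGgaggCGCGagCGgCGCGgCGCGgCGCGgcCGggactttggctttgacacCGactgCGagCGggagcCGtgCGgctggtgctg
CNOT3, chr19:54137512-54137811, plus strand: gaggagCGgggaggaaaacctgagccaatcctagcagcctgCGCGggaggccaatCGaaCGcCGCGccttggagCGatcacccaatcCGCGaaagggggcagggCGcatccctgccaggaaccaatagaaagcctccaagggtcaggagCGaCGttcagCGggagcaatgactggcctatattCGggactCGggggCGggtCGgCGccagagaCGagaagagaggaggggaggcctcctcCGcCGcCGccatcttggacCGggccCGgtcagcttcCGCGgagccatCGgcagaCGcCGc
CD63, chr12:55729624-55729923, minus strand: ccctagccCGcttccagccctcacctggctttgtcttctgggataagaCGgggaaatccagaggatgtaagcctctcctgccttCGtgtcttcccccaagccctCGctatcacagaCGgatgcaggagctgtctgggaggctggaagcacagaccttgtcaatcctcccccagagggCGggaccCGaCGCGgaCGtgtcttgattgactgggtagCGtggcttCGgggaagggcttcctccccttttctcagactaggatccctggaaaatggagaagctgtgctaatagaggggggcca
ZNF579, chr19:55580799-55581098, minus strand: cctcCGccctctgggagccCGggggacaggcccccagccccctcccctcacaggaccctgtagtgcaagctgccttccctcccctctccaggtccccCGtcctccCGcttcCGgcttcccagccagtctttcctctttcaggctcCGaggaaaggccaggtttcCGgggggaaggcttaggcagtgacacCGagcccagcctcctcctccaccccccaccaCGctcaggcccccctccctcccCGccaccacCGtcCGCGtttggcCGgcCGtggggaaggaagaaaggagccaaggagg
ZNF528, chr19:52397599-52397898, plus strand: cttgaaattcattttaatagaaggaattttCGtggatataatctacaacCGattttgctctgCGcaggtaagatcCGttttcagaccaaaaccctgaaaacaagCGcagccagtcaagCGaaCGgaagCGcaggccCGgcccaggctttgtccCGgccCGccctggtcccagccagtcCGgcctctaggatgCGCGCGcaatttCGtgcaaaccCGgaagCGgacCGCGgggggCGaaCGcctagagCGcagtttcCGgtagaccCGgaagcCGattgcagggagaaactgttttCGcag
The 3 starts with most counts hold 28, 35 and 30 CG in these 300 bases, against 12 for CD63, 15 for ZNF579 and 27 for ZNF528. All 6 hold GGGCGG on either strand, the core of the binding site of SP factors, and CNOT3 also holds CCAAT. Over all 35116 promoters of the RefSeq table, 45.0% hold GGGCGG and 34.6% hold CCAAT, and the median number of CG is 14.

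Among the members, end peaks held most of the counts. They were 10.7% of peaks and 34.5% of counts, with a median of 514 counts per peak (quartiles 145 and 1092), and a median end peak was found in 3.01% of cells. Inside peaks were 14.7% of peaks and 11.2% of counts, with a median of 83 counts (45 and 189) in 0.494% of cells. The 160788 peaks that are no members had a median of 81 counts (44 and 181) in 0.482% of cells. In counts per peak the inside peaks thus lay beside the peaks away from starts and not beside the end peaks. Peak widths did not separate the classes, with medians of 878, 879 and 880 bp.

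**Figure D1:**
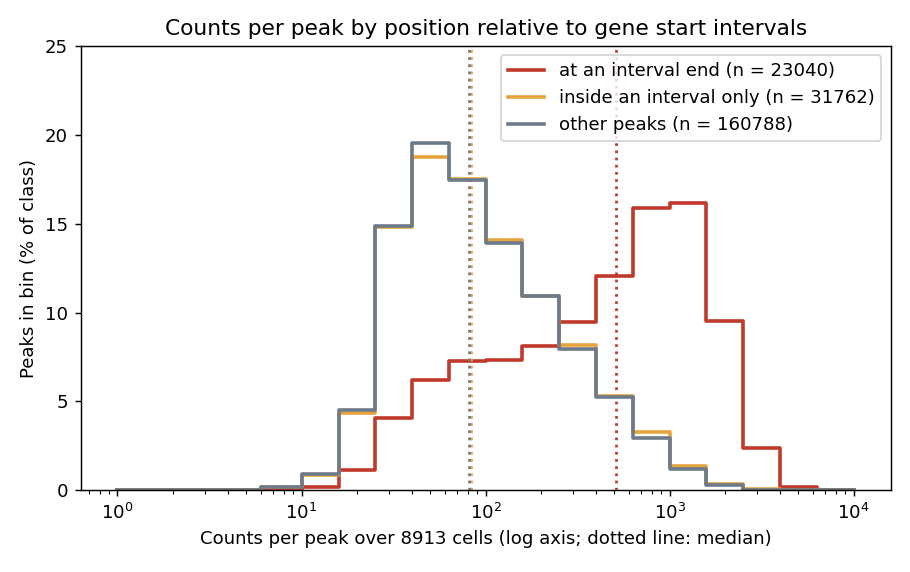
Distribution of counts per peak (x axis, log scale, summed over all cells) as the percentage of peaks of each class in each bin (y axis), with dotted lines at the medians. The curves of inside peaks and other peaks lie on each other, with medians of 83 and 81, and end peaks peak near 1000 counts with a median of 514.

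Of the 100 peaks with most counts 89 were members, 87 of them end peaks, and of the top 1000 there were 908 members and 875 end peaks. A count in at least 10% of cells was found for 1784 end peaks (7.74%), 74 inside peaks (0.233%) and 279 other peaks (0.174%). Members near an interval but outside it had medians of 180 (0 to 499 bp) and 186 (500 to 899 bp), and there was no step at the 1 kb limit. Just inside the rule, in the last 100 bp before the limit, the median was 143 counts (n = 547), and in the first 100 bp past it 138.5 (n = 570). The median was 125 from 1100 to 1999 bp and 77 at 5000 bp or more.

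An end peak often served more than 1 gene. Of the end peaks, 18524 lay at 1 gene, 4360 at 2 and 156 at 3 or more, with medians of 398, 978 and 993 counts. Among the peaks at 2 genes, the median was 1208.5 counts where both genes reached 1 CPM, or 1 UMI (counted RNA molecule) per 1000000 UMIs of all cells (n = 2022), 926 where 1 did (n = 1876) and 167.5 where neither did (n = 462). Among the peaks at 1 gene it was 712 at 1 CPM or more (n = 11383) and 124 below (n = 7141). Peak counts between a pair of starts cannot be divided between them, and where genes lie antisense their reads may not be told apart either, as no source used here states whether strand was used in counting.

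The peak with most counts, chr19:54189497-54190351 (coordinates of the deposited table), lies at the starts of MBOAT7, an enzyme that attaches arachidonic acid to phosphatidylinositol, and TSEN34, a subunit of the tRNA splicing endonuclease. It had 6428 counts and was found in 29.6% of cells (28.7 to 30.6), and a further peak at the same pair, chr19:54190485-54191403, had 5393. MBOAT7 stood at 110 CPM and TSEN34 at 47.4 CPM, where the median over genes of at least 10 CPM was 35.1 CPM. EEPD1 at chr7:36152517-36153430 followed with 5944 counts in 26.6% of cells and 17.4 CPM. CNOT3, a subunit of the CCR4-NOT deadenylase complex, had 5810 counts at chr19:54136939-54137870 and 26.9 CPM. The other 6 of the top 10 were the starts of KMT5C (a histone H4 methyltransferase) with 5602, FIZ1 and ZNF524 with 5421, MICALL2 with 5235, PPP2R1A (the scaffold subunit of protein phosphatase 2A) with 4934, RRM2B (a ribonucleotide reductase subunit) with 4905, and MZF1 with 4882 counts.

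Of those 10 peaks, 7 lay on chromosome 19. On that chromosome 26.8% of 5443 peaks were end peaks, the highest share of any chromosome used here, against 6.69% of 6531 on chromosome 13, the lowest. Past 50 Mb of chromosome 19 the median was 939 counts for end peaks (n = 237) and 128.5 for other peaks, against 514 and 81 over all chromosomes. Both classes were thus higher there than over all chromosomes.

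The share of genes with an end peak rose with the RNA level of the gene and then levelled off. An end peak was present for 28.6% of 11802 genes with 0 UMIs, 51.2% of 10261 genes up to 1 CPM, 81.9% of 5636 genes from 1 to 10 CPM, 97.6% of 7301 genes from 10 to 100 CPM, 98.6% of 1477 genes from 100 to 1000 CPM and all 111 genes above 1000 CPM. Among the genes that had one, the median number of counts at the start was 131, 325, 855.5, 1222, 1518 and 1464 in the same order. Above 10 CPM the medians of the last 2 bins lay within the quartiles of the bin from 10 to 100 CPM, 805.5 and 1805.

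**Figure D2:**
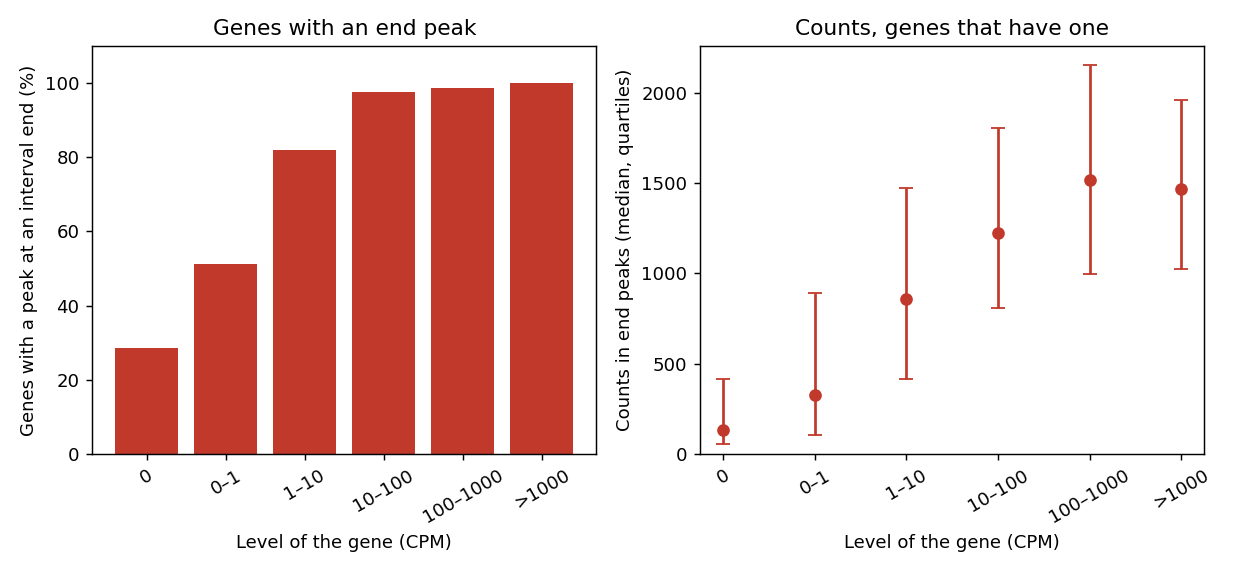
Left, genes with a peak within 1 kb of an interval end (y axis, percent) by RNA level of the gene (x axis, CPM over all cells); right, counts in those end peaks for the genes that have one (median, bars to the quartiles). The share climbs from 28.6% to 100%, and the median count levels off from 1222 at 10 to 100 CPM.

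Across 36588 genes the Spearman correlation of RNA level with counts in all member peaks was 0.71, given as a description because genes are not independent and all points come from 1 pool of cells. With counts in end peaks only it was 0.69 across the same genes. Among the genes with an end peak it was then 0.58 (n = 21941), at 1 CPM or more 0.30 (n = 13308) and at 10 CPM or more 0.17 (n = 8694). Most of the relation was thus between genes with little or no RNA and the rest. UMIs count molecules whatever their length. With end peak counts, RNA per kb of RefSeq gene length, introns included, gave 0.36 among genes of at least 1 CPM (n = 13506). RNA as CPM gave 0.39 (n = 14525). Over all genes only 68.5% had a RefSeq length, so that check is void there, whereas 93.0% of genes of at least 1 CPM had one.

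The genes with most RNA showed the plateau gene by gene. MALAT1, a nuclear long noncoding RNA, had 48060 CPM and 1353 counts in its end peak. FTL and FTH1, the chains of the iron store ferritin, had 5550 and 4631 CPM with 1644 and 1444 counts. EEF1A1, the translation elongation factor, had 5495 CPM and 3136 counts in 2 end peaks, and KRT18, a keratin of simple epithelia and mesothelium, 4153 CPM and 3152 counts in 2. RPLP1, NEAT1, RPL41, RPS2 and RPL10 made up the top 10, with 1287 to 1795 counts. Ferritin, EEF1A1 and ribosomal protein genes have many near-identical processed copies in the genome, so their UMIs may be split.

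All 32 cytosolic ribosomal protein genes had an end peak, with a median of 1417.5 counts (628 at RPL5 to 2843 at RPL7) and a median RNA level of 1862 CPM. Over all 8889 genes of at least 10 CPM the median was 1255 counts at 35.1 CPM, so ribosomal genes had start counts near those of expressed genes in general. The 13 housekeeping genes all had an end peak too, from 678 at HPRT1 to 3770 at ACTB, with a median of 1472.

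Of 8889 genes with at least 10 CPM, 124 (1.39%) had no member peak, and of 1588 with at least 100 CPM, 9 had none. CD63, a membrane protein of late endosomes and exosomes, led with 802 CPM. Its interval, chr12:55727059-55729707, had its nearest listed peak 1847 bp away, with 249 counts in 1.47% of cells. MTRNR2L12 (635 CPM) and MTRNR2L8 (168 CPM) are nuclear copies of mitochondrial ribosomal RNA, so their UMIs may be mitochondrial. GRIP1 stood at 374 CPM with its nearest peak 9458 bp away, CAMSAP2 at 181 CPM and HMGA2, an architectural chromatin protein, at 163 CPM with the nearest peak at 2168 bp and 42 counts. PIK3C2A (131 CPM), AC105402.3 (120 CPM), NCOA2 (109 CPM) and TANC2 (90.4 CPM) completed the list. NCOA2, a nuclear receptor coactivator, missed the rule by a few bases: a peak with 2315 counts in 12.6% of cells lay 1005 bp from its interval.

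Annotated starts outside the interval went with such gaps. RefSeq promoters matched 83.1% of the genes with at least 10 CPM, by symbol, gene ID or older symbol. Of the 75 matched genes without a member peak, 29 (38.7%) had their nearest RefSeq start over 1 kb outside the interval, against 64 of 7263 (0.881%) with a member peak. Over all 19080 matched genes, 46.4% had a RefSeq start at the very base of the interval's 5′ end and 77.6% within 100 bp of it.

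Open starts without RNA were also found. The genes of 3254 members (5.94%) all had 0 UMIs, and 2639 of these members were end peaks. Their median was 87 counts, but the highest reached 3202 at LINC02560 (chr19:58400932-58401835, 16.0% of cells), 2840 at AC008750.3, 2814 at AL161935.1 and 2764 at AC004895.1. Of the 10 with most counts, 9 belonged only to genes known by a clone-based or long noncoding name, and the other had FAM220A beside AC009412.1 with 2223 counts. By RefSeq class, 76.1% of 19190 protein-coding genes and 54.2% of 5151 long noncoding RNA genes had an end peak, with medians of 678 and 46 counts.

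Expressed genes with more counts at the start had promoters richer in CG, by a small margin. Among 4835 genes with at least 10 CPM, an interval of at most 1 kb and a RefSeq start within 1 kb (80.8% of the 5982 such genes), the median number of CG in 300 bases was 25 in the 1600 genes with fewest end counts, 28 in the 1601 in the middle and 29 in the 1597 with most, and 13 in the 37 genes without an end peak. The median RNA level of those groups also differed, at 28.1, 36.0, 41.4 and 17.5 CPM. The Spearman correlation of CG number with end counts was 0.19 over these genes. GGGCGG was held by 65.1%, 77.8% and 83.3% of these groups in the same order and by 40.5% of genes without an end peak, CCAAT by 29.4%, 37.7%, 47.3% and 21.6%, and TATAAA, the TATA box, by 5.38%, 4.18%, 5.39% and 16.2%. CCGGAAGT, an ETS site, was in 13.3% of the group with fewest counts and 8.20% of that with most, and the NRF1 site in 3.50% and 2.32%. TGANTCA, the AP-1 site, was in 4.06%, 3.94%, 3.13% and 10.8%, GGAATG, the TEAD core, in 11.3%, 9.87%, 9.52% and 5.41%, and TGACGTCA, the CRE, in 3.13%, 3.94%, 4.70% and 2.70%. Over all promoters of the table the shares were 11.5% for TATAAA, 7.71% for TGANTCA, 14.03% for GGAATG, 1.85% for TGACGTCA, 4.14% for CCGGAAGT and 1.24% for the NRF1 site. All motifs were searched on both strands, GGGCGG and the CG count overlap by construction, and a match of letters is not a bound site.

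Nearly all genes of the pathway under study had an end peak, as did 97.6% of all genes at 10 to 100 CPM. All 21 YAP/TEAD targets had one, with a median of 1129 counts, from 49 at AMOTL1 (1.87 CPM) to 4287 at ARHGEF17 (27.2 CPM). CCN1, a secreted matrix protein, had 287 CPM and 1444 counts, while CCN2 had 14.7 CPM and 2041 counts and ANKRD1 4.10 CPM and 952 counts. CCDC80 had the highest RNA of the list, 1194 CPM, with 767 counts. RNA thus ranged from 1.87 to 1194 CPM over the list, and the gene with most RNA had fewer start counts than the median.

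Of 20 Hippo pathway genes and TEAD cofactors, 18 had an end peak, with a median of 1304.5 counts. NF2 was 1 of the 2 without: it had no member peak and 4 UMIs in all cells. VGLL1, a TEAD cofactor, had no member peak and 0 UMIs. The factors TEAD4 and TEAD1 had 3055 and 2575 counts at 39.4 and 388 CPM, and TEAD2, with 4.04 CPM, had 3521. YAP1 had 2569 counts at 138 CPM, and WWTR1, which encodes TAZ, 1517 at 49.0 CPM.

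MAPK output genes, the feedback phosphatases, SPROUTY proteins and ETS factors induced by ERK, all had an end peak. The 13 ranged from 740 counts at SPRED1 to 3205 at ETV5, with a median of 2041 counts and of 17.1 CPM, against 1255 counts and 35.1 CPM over all genes of at least 10 CPM. DUSP6 had 1461 counts at 6.63 CPM and SPRY4 2084 at 8.02 CPM. Of 10 AP-1 genes 8 had an end peak, with a median of 2156.5 over all 10: JUND reached 3450 counts at 63.4 CPM, JUN 2352 at 161 CPM and FOSL1 2638 at 68.5 CPM. BATF, an AP-1 member of lymphocytes, had none and 0 UMIs, and ATF3 had 7 members over an interval of 49845 bp but none at its own ends.

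The labels name mesothelioma as the cell type and an epithelial lung tissue. The starts were open at the listed mesothelial markers more than at the listed epithelial or squamous ones. All 14 mesothelial markers had an end peak, with a median of 1868.5 counts, among them WT1 with 2509, MSLN with 2026, and KRT8 and KRT18 with 3355 and 3152, of which 3152 are shared. The summed RNA of this list was 11714 CPM. The epithelial and squamous list had an end peak for 9 of 14, a share near the 60.0% of all genes. Its median was 42.5 counts, against 127 over all genes, its summed RNA was 6.21 CPM, and CDH1 had 66 counts. KRT6A, a squamous keratin, had 718 counts and 0 UMIs. Immune genes had an end peak in 5 of 12 and endothelial genes in 2 of 8, each with a median of 0 counts. For scale, 51.2% of genes with RNA up to 1 CPM had one. PTPRC, CD3E, LYZ, PECAM1 and VWF had none, but CD68 had 690 counts at 7.35 CPM, CD8A 431 at 0.241 CPM and KDR 415 at 16.7 CPM. Fibroblast and smooth muscle genes had one in 8 of 10, with COL1A1 at 2608 counts and 108 CPM. COL1A2, the other chain of collagen I, had 171 counts and 0 UMIs.

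Of 38 HOX genes, transcription factors of body position, 22 had an end peak, a share near the 60.0% of all genes, with a median of 173 counts over all 38 and 24 with at least 1 UMI. HOXA2, HOXA4 and HOXA5 had 1507, 1768 and 1658 end counts. HOXA3, which has a wide interval, held 3 members, none of them at its own ends, and such members can be end peaks of a neighbouring gene. HOXA6 and HOXA9 had no member peak. In HOXD, 2 of the 9 listed genes had an end peak, HOXD11 with 178 and HOXD10 with 26 counts, and HOXD3 alone had UMIs, 3 in all cells. HOXC13 combined 2019 counts with 0.723 CPM. Neuronal genes showed similar cases: of 12 genes 10 had an end peak, and SLC17A7, a vesicular glutamate transporter, had 1853 counts with 1 UMI.

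Histone genes are short, and a start peak can cover the next gene. Of 19 listed, 18 had an end peak, with a median of 1496 counts. HIST1H2AC and HIST1H2BC are neighbours and shared the same 1752 counts. The highest was H3F3B with 4591 counts at 312 CPM, and capture by poly(A) reads the tail-less RNAs of replication-dependent histones poorly. All 20 interferon response genes had an end peak, with a lower median of 635.5 counts, from 139 at IFI44L to 2192 at IRF1. All 15 G2 and mitosis genes had one, from 667 at CENPE to 2138 at AURKA, with a median of 1304.

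Genes with wide intervals held many members. MACROD2 had 126 member peaks, RBFOX1 118, PDE4D 104, AC011287.1 100, AUTS2 and PCAT1 94 each, DLEU1 93, LRMDA 90, GPC6 89 and KCNMA1 88. Of the 126 in MACROD2, an ADP-ribosylhydrolase, 1 lay at its own ends, with 837 of 12267 counts. PDE4D, a cAMP phosphodiesterase, had no peak at its own ends and 13775 counts in members, at 12.5 CPM.

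Where an interval was wider than 10 kb and RefSeq gave the strand, a peak at the 5′-most end alone was more frequent than one at the other end alone. Of 2948 such genes, both ends had a peak in 860, the 5′-most end alone in 1270, the other end alone in 293 and neither in 525. The median was 487.5 counts at the 5′-most end and 0 at the other, and for 1468 genes of at least 10 CPM 1007.5 and 0. VGLL4, a TEAD repressor, had 2243 counts at the 5′-most end and 156 at the other. KRT8 had 3152 and 203, but its 5′-most end lies over the KRT18 start and the 3152 counts are those of the same 2 peaks. The order was turned at WWTR1 (36 and 1481), RBMS3 (17 and 879), RUNX2 (95 and 582) and RPL4 (0 and 1439). IL1RAPL1, with 65 member peaks over 1330018 bp, had 33 and 0.

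The members' share of a cell's counts varied more between cells than counting gives. Its median was 45.7%, from 25.7% to 66.0%, with an SD of 2.69 percentage points against 1.27 from counting alone. For end peaks the median was 34.5% with an SD of 3.04 against 1.21, and for inside peaks 11.2% with 0.906 against 0.806. Of the 2 classes of members, the end peaks thus showed more of the extra spread. The share of the other peaks is the remainder and has the same SD as that of all members. These shares therefore cannot tell whether the spread lies in the end peaks or in the other peaks. The share had a Spearman correlation over cells of -0.02 with peak counts and -0.04 with the mitochondrial share of UMIs. Between 5 equal groups of cells ordered by UMIs the median share lay between 45.6% and 45.9%, while its SD rose from 2.26 in the shallowest to 3.25 in the deepest. With every cell thinned to 1000 peak counts the SD still went from 2.55 to 3.59.

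**Figure D3:**
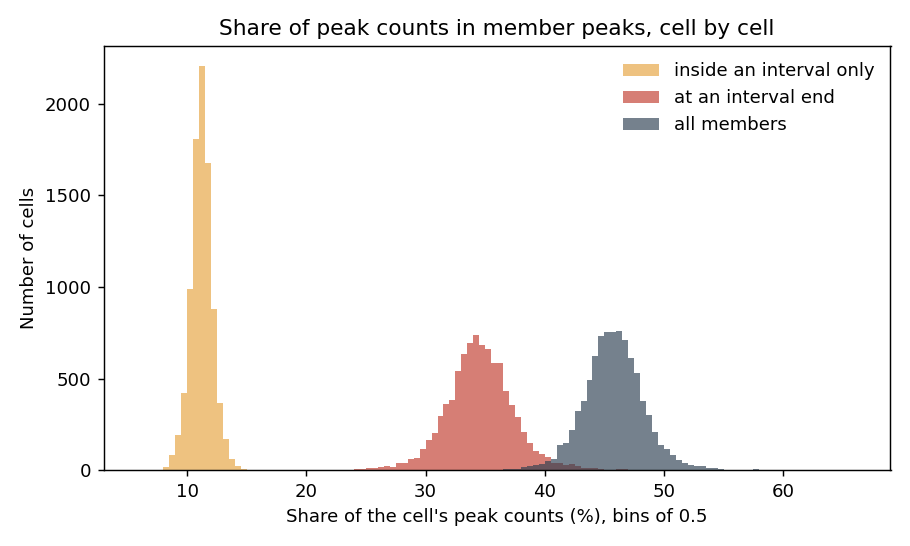
Number of cells (y axis) by the share of a cell's peak counts in all members, end peaks and inside peaks (x axis, percent). The medians lie at 45.7%, 34.5% and 11.2%, and the end peaks spread more widely than the inside peaks.

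Cells with a high share had more RNA of dividing cells. The 892 cells with the highest share (10% of cells, median 49.96%) were compared with the 892 with the lowest (median 41.7%), a comparison added after the data were seen. Their medians were 1768 and 1737 UMIs, 3507.5 and 3871 peak counts, and 13.97% and 14.8% mitochondrial UMIs. Of 5513 genes with at least 100 UMIs over both, 176 (3.19%) were at least 1.5-fold higher with an interval above 1 and 111 (2.01%) lower. Of 13 compared G2 and mitosis genes 12 were higher and none lower, with a median log2 ratio of 1.13 against 0.04 over all 5513. NUF2, a kinetochore protein, had 47.3 against 17.6 CPM (2.69-fold, 1.78 to 4.14), CENPE, a mitotic motor, 2.46-fold (1.88 to 3.23), MKI67, the proliferation marker, 2.30-fold (1.82 to 2.91), and TOP2A, topoisomerase II, 599 against 299 CPM (2.01-fold, 1.81 to 2.22). CDK1 was at 1.38-fold (1.05 to 1.83). The largest ratio was at KIF14, a kinesin of cytokinesis, with 77.3 against 26.6 CPM (2.90-fold, 2.09 to 4.09).

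Of 13 interferon response genes 9 were higher and none lower, with a median log2 ratio of 0.67. IFIT2 was 2.53-fold higher (1.75 to 3.73) and IFIH1, a sensor of double-stranded RNA, 2.16-fold (1.43 to 3.33), while MX1 was at 0.961 (0.745 to 1.24). Outside the list, the interferon-induced RSAD2 was 2.48-fold higher (1.83 to 3.40) and the chemokine CCL5 2.80-fold (2.05 to 3.89). Histone genes had a median log2 ratio of 0.30 with 1 of 7 called. The 32 ribosomal protein genes gave a median of 0.04 and no call.

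Of 13 YAP/TEAD targets 3 were lower and none higher, with a median log2 ratio of -0.20. The 3 were F3, tissue factor, with 29.0 against 69.8 CPM (2.41-fold lower, 1.74 to 3.37), IGFBP3 (1.82-fold lower, 1.49 to 2.22) and CCN1 (1.58-fold lower, 1.40 to 1.78). CRIM1 was at 0.879 (0.822 to 0.938), and RBMS3 and DLC1 at 1.022 and 1.10. Mesothelial markers had a median of -0.29 without a call, with KRT7 at 0.738 (0.703 to 0.775). The lowest of all genes was DISC1FP1, with 140 against 402 CPM (2.88-fold lower, 2.50 to 3.33), followed by CYP24A1, the vitamin D 24-hydroxylase (2.53-fold lower, 2.04 to 3.15), SUGCT (2.09- to 3.02-fold), TMEM40 (2.47-fold), F3 and CPA4 (2.27-fold).

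**Figure D4:**
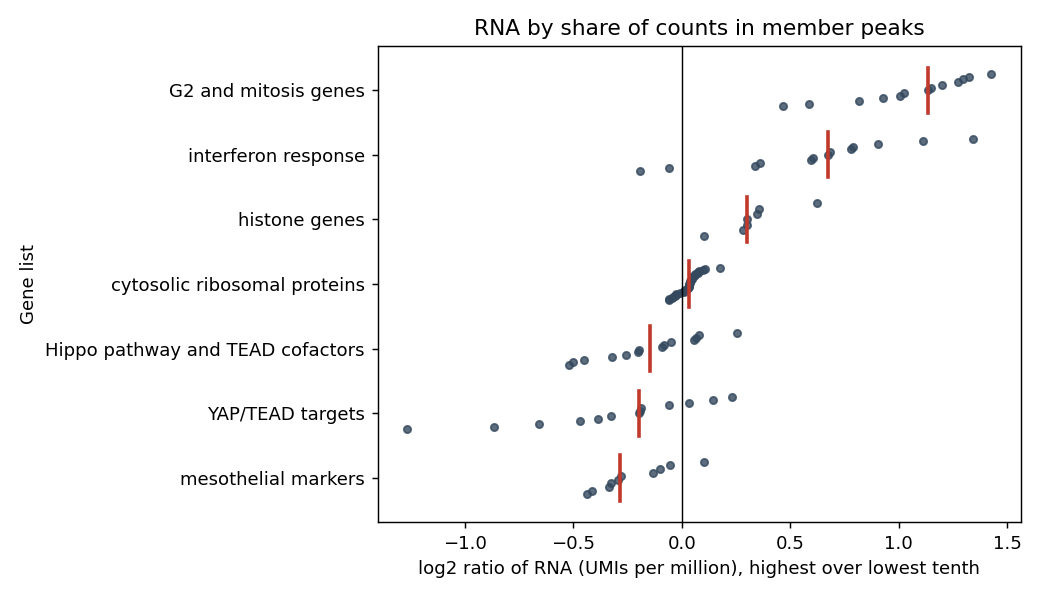
Log2 ratio of RNA between the 10% of cells with the highest and the 10% with the lowest share of counts in members (x axis), 1 point per compared gene, by gene list (y axis), with red bars at the medians. G2 and mitosis genes all lie to the right with a median of 1.13, and YAP/TEAD targets and mesothelial markers have medians of -0.20 and -0.29.

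Turned round, the share rose in small steps with the RNA of dividing cells. With cells thinned to 1000 UMIs, the pooled share of peak counts in members was 45.4% in 3896 cells with no UMI of the 15 G2 and mitosis genes, 45.7% in 2466 with 1, 46.0% in 1332 with 2 and 46.4% in 1219 with 3 or more. The intervals of these shares were 45.38 to 45.44, 45.63 to 45.71, 45.91 to 46.02 and 46.31 to 46.41, and they leave out the extra spread between cells. The medians of the share per cell were 45.60%, 45.64%, 45.91% and 46.20%, with a smaller first step. End peaks went from 34.2% to 35.2%, and inside peaks from 11.3% to 11.2%. The median peak counts per cell were 4357.5, 3783, 3632 and 4026 in the same order of groups, and a part of depth in these shares was not tested.

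Single member peaks were close to what counting gives. The dispersion index, the variance over cells divided by that from counting at each cell's depth, had a median of 1.006 over the 8389 members found in at least 5% of cells, and 1.009 over 3339 other peaks. Among the other peaks the index reached 6.78. Among the members the highest was 1.09, at ZNF579, MEGF6, LGALS1, PIN4 and PSORS1C1. PLEC, KLF13, the shared start of ALDH6A1 and LIN52, ZNF808 and ZFP36L1 followed at 1.08 to 1.09. At ZNF579 the peak had 1265 counts in 6.98% of cells and at LGALS1, which encodes galectin-1, 1585 counts in 8.27%. A peak seen in few cells holds little information on its spread, and differences between cells smaller than counting error were not detectable at this depth.

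Cells that held a UMI of a gene differed little in its members from cells that did not. All members of a gene were summed here, inside peaks included. For 11440 genes the median log2 ratio of member rates was 0.02, and for other peaks 5 to 50 kb from the same kind of interval also 0.02. The ratio was at least 1.5 with an interval above 1 for 143 genes (1.25%) and at most its inverse for 93 (0.813%), against 137 (1.20%) and 98 (0.857%) for the other peaks. The other peaks were also tested at 11440 genes, but not all the same ones. Over the 11009 genes tested in both, 136 and 89 were called for members and 126 and 93 for the other peaks. Of the 236 called genes, 228 rested on 50 or fewer events in cells with a UMI. Among the genes with at least 1000 events and 1000 cells with a UMI, the median was 0.03 and none was called.

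The highest ratio, at ZNF528, rested on 3 events in 60 cells with a UMI (7.74-fold, 1.54 to 24.0003). AC004704.1 was better filled, with 28 of 73 events in 1000 cells with a UMI, a rate of 8.88 against 2.00 per 1000000 events (4.45-fold, 2.67 to 7.28). AC090015.1 (3.90-fold), RTN4R (3.85-fold), PAG1 (3.68-fold), HOXC8 (3.58-fold), FBLN1 (3.40-fold), HTATIP2 (3.31-fold), ZNF66 (3.31-fold) and MLPH (3.24-fold) followed on 4 to 11 events each. The 5 lowest, ZNF513, TMEM237, TMEFF1, GSEC and ZSWIM3, had 0 events in cells with a UMI, and the intervals of their ratios reached up to 0.592, 0.756, 0.892, 0.882 and 0.729.

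Over all 11440 genes tested, 143 (1.25%) were called higher and 93 (0.813%) lower. Among 21 genes tested that had differed between cell clusters in earlier work on these data, so that their spread is no independent finding, 4 were called, all higher. They were LCN2, an iron-scavenging secreted protein (2.14-fold, 1.28 to 3.38), CHI3L1, a secreted chitinase-like protein (1.71-fold, 1.30 to 2.22), CLSTN2 (1.60-fold, 1.07 to 2.32) and SFTPD, surfactant protein D (1.55-fold, 1.17 to 2.01). CYP24A1 reached 1.49-fold (1.16 to 1.89), PTPRQ 1.40-fold (1.21 to 1.63) and ADGRL3 1.39-fold (1.19 to 1.61). RUNX2 and IL1RAPL1 stood at 0.986 (0.797 to 1.21) and 0.950 (0.806 to 1.11). These ratios do not describe starts alone. ADGRL3 has no end peak of its own, and end peaks held 677 of 2359 member counts at RUNX2 and 33 of 5201 at IL1RAPL1.

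Pooled over many genes, end peak rates differed in the direction of RNA between cells, by less than RNA did. From the same earlier lists, 5 sets of 3 genes were taken, and cells with at least 2 UMIs of a set were compared with cells with none, leaving the 3 genes out. The first groups held 313 to 726 cells and were deeper, with medians of 2076.5 to 2347 UMIs against 1470 to 1506. A gene entered with at least 100 UMIs over both groups, 20 CPM in the higher one and 50 events, so genes low in one group could pass through the other. Where RNA was at least 2-fold higher, the pooled end peak rate was 1.021 to 1.16 times as high across the 5 sets, the lowest with an interval that holds 1 (0.959 to 1.09, cells with CYP24A1, CLSTN2 and ERBB3 RNA), and where RNA was at least 2-fold lower it was 0.819 to 0.953 times as high. For genes within 1.5-fold it was 0.947 to 1.025. Other peaks 5 to 50 kb away gave ranges of 1.06 to 1.13 and 0.856 to 0.972 for the genes higher and lower in RNA, so the same order was found away from starts. For the genes lower in RNA, their intervals held 1 in the CYP24A1 set (0.891 to 1.011) and the LCN2 set (0.942 to 1.003). Inside peaks gave 1.05 to 1.21 for genes higher in RNA and 0.819 to 0.997 for genes lower, and the latter intervals held 1 in the INHBA set (0.916 to 1.06) and the LCN2 set (0.956 to 1.04). With 20 CPM asked over all cells instead, an alternative added after the data were seen, end peaks gave 1.002 to 1.18 and 0.819 to 0.952.

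**Figure D5:**
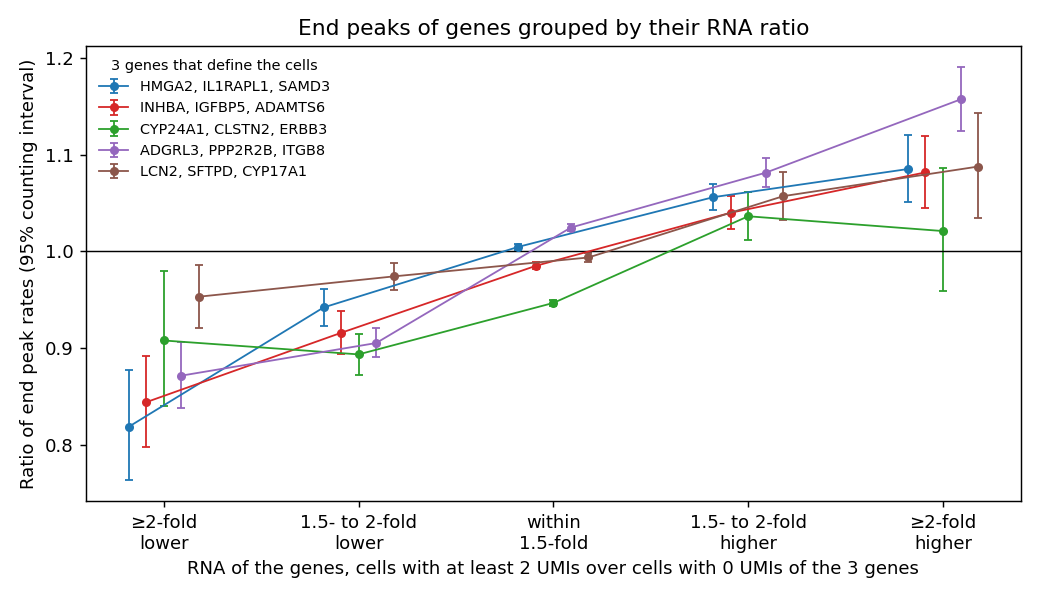
Ratio of pooled end peak rates (y axis, 95% counting intervals) for genes grouped by their RNA ratio (x axis) between cells with at least 2 UMIs and cells with 0 UMIs of 3 genes, for 5 sets of genes. In each set the ratio is higher for genes with at least 2-fold higher RNA (1.021 to 1.16) than for genes with at least 2-fold lower RNA (0.819 to 0.953).

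The cells with ADGRL3, PPP2R2B and ITGB8 RNA gave 1.16 (1.12 to 1.19) over 107 genes higher in RNA and 0.872 (0.838 to 0.906) over 87 lower. IFITM2, an interferon-induced membrane protein, was 0.495 in RNA (0.391 to 0.618) and had 3 end events against 176, a ratio of rates of 0.225 (0.0459 to 0.668). SAA1, an acute phase protein, was 0.435 in RNA and had 0 end events against 72, with an interval of the ratio up to 0.693. In cells with INHBA, IGFBP5 and ADAMTS6 RNA, AC004704.1 was 8.42-fold higher in RNA (7.57 to 9.36) and 4.39-fold at its start (2.41 to 7.67). In cells with HMGA2, IL1RAPL1 and SAMD3 RNA, RUNX2 was 2.18-fold higher in RNA and 1.72-fold at its end peaks (1.28 to 2.28), and SFTPD 0.418 and 0.452 (0.276 to 0.702). In cells with LCN2, SFTPD and CYP17A1 RNA, INHBA, a subunit of activin, was 0.254 in RNA and 0.443 at its ends (0.252 to 0.725). Other genes went against their RNA. AC016831.7, in the cells with HMGA2, IL1RAPL1 and SAMD3 RNA, was 2.13-fold higher in RNA (1.73 to 2.61) and at 0.553 at its ends (0.304 to 0.935), and CHMP1B, in the cells with INHBA, IGFBP5 and ADAMTS6 RNA, was 2.03-fold higher (1.47 to 2.75) and at 0.583 (0.352 to 0.912).

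The cells with CYP24A1, CLSTN2 and ERBB3 RNA had fewer events in members. Their pooled share of events in members was 44.6% against 45.9% in cells without, while for the set with INHBA, IGFBP5 and ADAMTS6 the shares were 45.4% and 45.8%. Genes within 1.5-fold in RNA had a pooled end peak ratio of 0.947 (0.944 to 0.950) there and a ratio of 1.03 at other peaks 5 to 50 kb away. CYP24A1 itself had 62 end events against 237, a 2.29-fold rate (1.70 to 3.03), and CLSTN2 1.88-fold (1.30 to 2.66), while ERBB3, a receptor of neuregulins, was at 1.13 (0.951 to 1.35). HMGA2 and ADGRL3 have no end peak, and their own sets show none of their own start.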

How the data were processed

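The authors deposited 1 matrix of whole-number counts per gene or peak and barcode, made with Cell Ranger ARC 2.0.0 per the file headers: UMI counts for 36601 genes and transposition counts for 215590 peaks in 651860 barcodes. The submitters' processing notes list GRCh38.p10, MACS2, ArchR 1.0.3 and Cell Ranger 2.0.0 too, with no role stated, and the caller behind these peaks is not stated in any source used here. Raw reads per cell per the labels were, in units of 1000, about 20 for expression, 30 for accessibility and 2 for hashtags.

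Barcodes with at least 1000 UMIs, 1000 peak counts and at most 20% of UMIs in MT- genes were kept as cells (8913 of 11130 past the count minimums), with medians of 1524 UMIs (1000 to 13064) and 4034 peak counts (1001 to 59374). In barcodes under 100 of both, members held 47.8% of peak counts, and in barcodes over the mitochondrial limit 45.1%. No doublet caller was run, and doublets remain among the cells. Ratios carry exact conditional binomial 95% intervals, not adjusted for the number of genes compared. Genes were called at 1.5-fold with an interval that leaves out 1, over at least 50 cells a group and 50 events for members. Named genes are the first 10 by counts, RNA, number of peaks or dispersion, the 10 genes highest and the 5 lowest by ratio between cells with and without a UMI, and the extremes and further members of each gene list, some chosen after their values were seen, as were genes named between groups of cells; Y-linked genes and XIST are left out, and 13 gene rows without an interval have no start. The members, lists and comparisons were chosen with earlier results of these data known. Scripts used Python 3.11.15, numpy 2.4.6, scipy 1.17.1 and pandas 2.3.3 and were tested on simulated data.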

Additional observations from a re-analysis of the deposited data

How the results depend on the processing

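The cells kept moved the members' share of counts by little: 45.6% with minimums of 500 UMIs and 500 peak counts, 45.5% with 2000 of each, 45.8% with at most 10% mitochondrial UMIs, 45.5% without that limit, 45.8% without the 8% of cells with most counts and 44.9% with presence in place of counts. The definition of a start moved it more. Without widening, members were 23.02% of peaks and 42.1% of counts (median per cell 42.1%), at 2 kb 27.9% and 48.3%, and at 5 kb 34.1% and 54.1% (54.2%). With intervals of at most 1 kb they were 7.61% and 25.8% (25.8%), and with interval ends only, an alternative chosen after the data were seen, 10.7% and 34.5% (34.5%). The correlation of RNA level with counts in members was 0.38 for genes of at least 1 CPM and 0.42 with members from intervals of at most 1 kb. In the latter, genes with wider intervals stayed in the correlation without start counts, so 0.42 does not describe genes with narrow intervals alone. Under the other alternatives the correlation was within 0.05 of the main 0.71. Between cells with and without a gene's own UMI, 94 of 7885 genes (1.19%) were called with minimums of 200, against 236 of 11440 (2.06%). Under the other alternatives 173 to 240 genes were called, 1.81% to 3% of those tested. The count of 173 was at a mitochondrial limit of 10%, where 5773 genes were tested and the share was the highest, 3%. With interval ends only, 240 of 11250 (2.13%) were called. The median log2 ratio of G2 and mitosis genes by share was 1.96 with 2000 UMIs and 2000 peak counts, 0.82 to 1.28 under the other alternatives, and could not be given at a mitochondrial limit of 10%, where under 3 genes were compared. The cause of these moves was not tested. No paired analysis was possible because the groups are libraries of 1 pool of cells and no test was made. The dispersion index stayed between 1.000 and 1.008, and at a median of 4034 peak counts per cell single peaks are too sparse to compare cells.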
